A study of Mus musculus with 32 samples.

Results

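The protein-coding transcripts of the mitochondrial genome were followed in mouse liver across 8 groups of mice that differed in genotype, diet and feeding state. The members were chosen by name: mt-Nd1, mt-Nd2, mt-Nd4, mt-Nd5, mt-Cytb, mt-Co1, mt-Co2, mt-Co3 and mt-Atp6, which are 9 of the 13 protein genes that the annotation places on mouse mitochondrial DNA. Of these 9 members, 6 have a row in the count table of 20076 genes, and the other 3, mt-Co2, mt-Co3 and mt-Atp6, have no row in the table used here, so every measurement below rests on 6 genes. The table holds 20 of the 37 annotated mitochondrial genes in all.

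The series measured liver RNA of 32 male mice on the C57BL/6J background by sequencing the 3′ ends of messenger RNAs, with 4 mice per group as labelled. MCAD-KO mice carried a knockout of Acadm, the gene of medium-chain acyl-CoA dehydrogenase, which oxidises medium-chain fatty acids in mitochondria, and WT mice carried the intact gene. Each genotype received a low-fat (LF) control diet or a high-fat (HF) semisynthetic diet for 6 weeks, and was then either fasted for 16 h or left on its diet (fed). The labelled ages ran from 7.5 to 16, with no unit in the labels. This gave the groups WT LF fed, WT LF fasted, WT HF fed, WT HF fasted, KO LF fed, KO LF fasted, KO HF fed and KO HF fasted. The rule left out 2 mice, replicate 4 of the KO HF fasted group and replicate 2 of the WT LF fed group, so that these groups had 3 mice and the other groups 4, or 30 mice in all.

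Mitochondrial DNA is a small circle that is transcribed as long precursors from both strands. The precursors are cut at the transfer RNAs that lie between the coding genes, and the messenger RNAs receive poly(A) tails, which complete some of the stop codons. The encoded proteins are core subunits of the respiratory chain and ATP synthase, where they assemble with many subunits encoded in the nucleus: NADH dehydrogenase (complex I) holds the mt-Nd products, the cytochrome bc1 complex (complex III) holds cytochrome b, cytochrome c oxidase (complex IV) holds the mt-Co products, and ATP synthase holds the mt-Atp products. Pieces of mitochondrial DNA have also been copied into the nuclear chromosomes, and some of these copies are annotated as pseudogenes.

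The annotated ends of the transcripts are shown because 3′ libraries read near the ends of messengers. A read whose letters also occur in such a copy has no single place. Whether each messenger ends where its annotation does was not tested. The last 50 bases of each member are printed as the messenger reads, 5′ to 3′, from the GENCODE transcripts on GRCm38, with positions on chromosome M. Capitals mark bases that lie in a 50-base window, the read length of the study, found letter for letter in an annotated nuclear transcript.
mt-Nd1, chrM:3658-3707, plus strand: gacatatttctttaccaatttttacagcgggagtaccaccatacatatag
mt-Nd2, chrM:4902-4951, plus strand: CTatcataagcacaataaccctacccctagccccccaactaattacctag
mt-Nd4, chrM:11495-11544, plus strand: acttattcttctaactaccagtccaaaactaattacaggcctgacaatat
mt-Nd5, chrM:13516-13565, plus strand: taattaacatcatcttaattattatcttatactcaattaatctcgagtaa
mt-Cytb, chrM:15239-15288, plus strand: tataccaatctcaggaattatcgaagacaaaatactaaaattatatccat
mt-Co1, chrM:6823-6872, plus strand: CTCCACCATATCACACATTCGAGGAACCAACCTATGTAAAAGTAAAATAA
mt-Co2, chrM:7647-7696, plus strand: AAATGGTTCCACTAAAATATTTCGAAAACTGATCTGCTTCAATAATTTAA
mt-Co3, chrM:9341-9390, plus strand: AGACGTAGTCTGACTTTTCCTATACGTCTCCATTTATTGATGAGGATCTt
mt-Atp6, chrM:8558-8607, plus strand: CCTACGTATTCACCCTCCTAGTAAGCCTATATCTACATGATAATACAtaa

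The 3 members without a row are those whose transcript is shared over nearly its whole length. Of the 50-base windows of mt-Co2, 100% occurred in a nuclear transcript, against 99.9% for mt-Co3 and 99.5% for mt-Atp6. By contrast, no window of mt-Nd1 or mt-Cytb was shared, and the shares were 7.61% for mt-Nd5 and 8.19% for mt-Nd2. mt-Nd4 and mt-Co1 lay between these, and they differed in where the shared bases sat. In mt-Nd4 the shared windows made up 62.2% and covered bases 1 to 876 of 1378, so that none fell in the last 300 bases. In mt-Co1 the shared windows made up 51.1%, and every window of the last 300 bases was shared, the last shared stretch running from base 1067 to the end at 1545. The longest matches lay side by side on chromosome 1, where unprocessed pseudogenes on the minus strand match mt-Nd4 (Gm28439, chr1:24611535-24612410), mt-Co3 (Gm28437, chr1:24613189-24613971), mt-Atp6 (Gm10925, chr1:24613974-24614651), mt-Co2 (Gm28661, chr1:24614885-24615565) and mt-Co1 (Gm29216, chr1:24615706-24616197). None of these 5 pseudogenes has a row in the table used here, and a read that fits a gene and its copy equally well cannot be assigned by its letters. The level of mt-Co1 is therefore uncertain, since its counts can come without doubt only from stretches upstream of its shared 3′ part. Outside the members, mt-Atp8 had no shared window and no row. mt-Nd3 had 98% of its windows shared and a row, but this row held at most 1 count in any of the 30 mice. No gene in the table had 0 counts in all 32 libraries, and whether a missing row stands for 0 counts was not tested. Whether the counting left out reads with several matches was not stated, and its part in the missing rows was not tested.

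**Figure D1:**
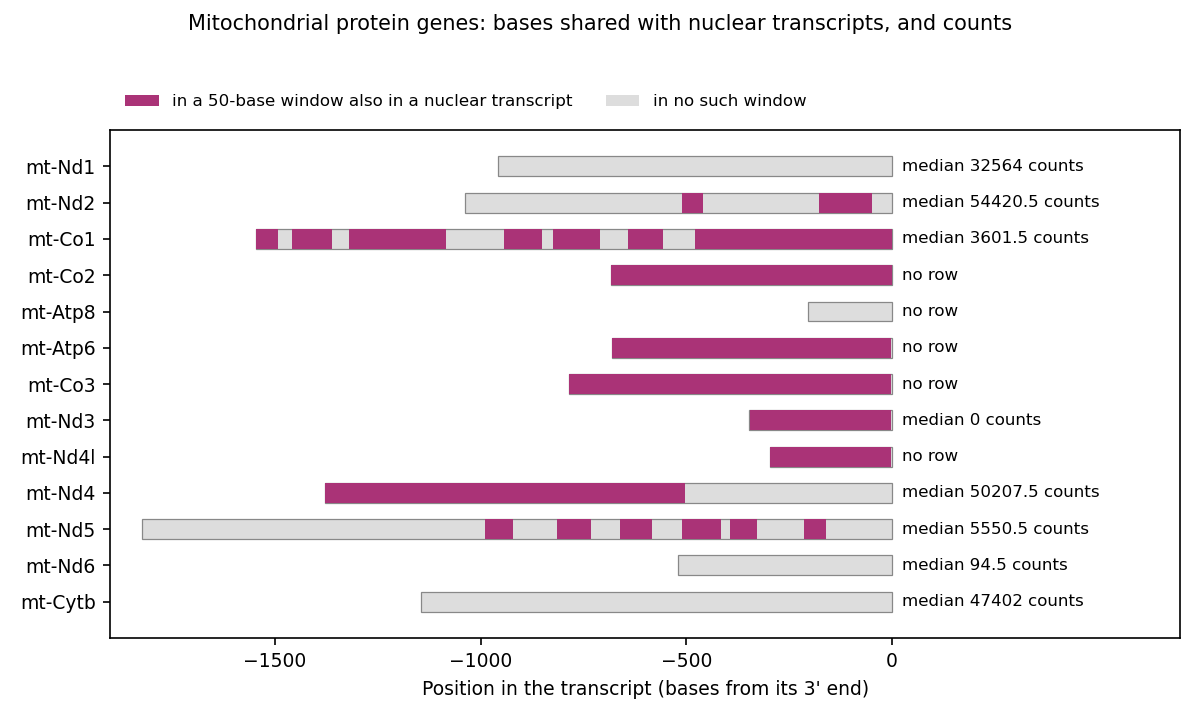
Bars show the 13 mitochondrial protein transcripts aligned at their 3′ ends, with the position in bases from the 3′ end on the x axis; coloured stretches lie in 50-base windows also found in a nuclear transcript, and the median count over 30 mice stands at the right. mt-Co2, mt-Co3 and mt-Atp6 are coloured along nearly their whole length and have no row, while mt-Nd1 and mt-Cytb have no coloured base and medians of 32564 and 47402 counts.

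Depth was even enough to measure the members with little counting error. The 30 libraries held 2031053 to 4292200 counts, and each of the 6 genes had at least 2499 counts in every mouse, so differences between mice and not counting limited the precision. Levels are given in CPM, counts per 1e6 counts of the scaled library. Acadm checked the genotype labels: it stood at 190 to 748 CPM in the 15 WT mice and at 8.98 to 37.1 CPM in the 15 KO mice. Libraries were labelled as run on lanes 7 (16 of the 30 mice) and 8 (14 mice), and the WT LF fed mice all came from lane 8. Hepatocyte markers (10 genes) summed to 43000 to 68000 CPM in the 30 mice, so the markers of the labelled tissue were high in all of them. In replicate 4 of KO HF fasted, left out, they summed to 798 while 12 heart genes summed to 34400, against at most 82.2 elsewhere among the 30. The other mouse left out, WT LF fed replicate 2, had 435 CPM for 6 bile duct genes, against at most 96.9. Among the 30 mice, 5 had over 100 CPM in a list of acinar pancreas, skeletal muscle or adrenal genes, and 4 of these 5 were HF mice, the highest being WT HF fasted replicate 2 with 18300 for acinar genes. In bulk liver, fewer cells of a type and less RNA per cell cannot be told apart.

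Per length of transcript, mt-Nd2 stood highest among the members, at a median of 18457 CPM per kilobase over the 30 mice, followed by mt-Cytb at 14254, mt-Nd1 at 12032 and mt-Nd4 at 11864. mt-Nd5 and mt-Co1 stood far lower, at 959 and 794 CPM per kilobase. The step from mt-Nd4 to mt-Nd5 was seen in 30 of 30 mice, with a median ratio of 12.4 and a lowest ratio of 7.54. Neighbours within the upper group were less distinct: mt-Nd2 exceeded mt-Cytb in 29 mice and mt-Cytb exceeded mt-Nd1 in 23, but mt-Nd1 exceeded mt-Nd4 in only 15 of 30, so these last neighbours did not differ beyond their spread. mt-Nd5 exceeded mt-Co1 in 28 of 30 mice. Because the libraries read 3′ ends, a level per length is not a number of molecules, and the order and ratios above depend on the division by length. Undivided, the medians were 19159 CPM for mt-Nd2, 16348 for mt-Nd4, 16306 for mt-Cytb and 11515 for mt-Nd1. They were 1750 CPM for mt-Nd5 and 1227 CPM for mt-Co1. Each level also rests on the annotated end of its gene, and whether the messengers end there was not tested.

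mt-Nd1, a membrane subunit of complex I, was one of the members, with mt-Nd5, whose average fasting and diet differences both passed the test. In WT LF fed mice it stood at 11433, 13292 and 11107 CPM, and in WT LF fasted mice at 14393, 15453, 15663 and 14184 CPM. In KO LF fed mice it stood at 10276, 11597, 11350 and 11631 CPM, and in KO LF fasted mice at 12971, 20907, 13444 and 17855 CPM. On the LF diet the fasted mice of both genotypes were all above the fed mice of the same genotype. On the HF diet WT fed mice had 9378 to 10387 CPM and WT fasted mice 10031 to 13735 CPM. KO HF fed mice had 8390 to 12223 CPM and KO HF fasted mice 9841 to 12638 CPM, and on this diet fed and fasted mice overlapped in both genotypes.

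mt-Nd2, another membrane subunit of complex I, differed most between the KO LF groups. KO LF fed mice had 15397, 14927, 17504 and 15981 CPM, and KO LF fasted mice had 41983, 22879, 24431 and 22325 CPM. All fasted mice of this genotype and diet were above all fed mice, and replicate 1 was far above the other fasted mice. WT LF fed mice had 25037, 18039 and 22812 CPM, and WT LF fasted mice had 21271, 20964, 26742 and 20809 CPM, which overlapped. On the HF diet the values ran from 15682 to 19620 CPM in WT fed, 12605 to 19183 in WT fasted, 16239 to 19134 in KO fed and 19381 to 22983 in KO fasted mice. WT HF fed and fasted mice overlapped, and KO HF fasted mice were all above KO HF fed mice.

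mt-Nd4, a proton-pumping subunit of complex I, had 15156, 15510, 15520 and 16319 CPM in KO LF fed mice and 22975, 22751, 19399 and 18654 CPM in KO LF fasted mice, with no overlap. In the other 3 pairs of fed and fasted groups the values overlapped, between 12065 CPM in WT HF fasted and 22170 CPM in WT LF fed mice. mt-Nd5, the largest of the mitochondrially encoded subunits of complex I, separated feeding states on the LF diet in both genotypes. WT LF fed mice had 2049, 1901 and 2093 CPM, and WT LF fasted mice had 2859, 3165, 2283 and 2455 CPM. KO LF fed mice had 1308, 1303, 1742 and 1699 CPM, and KO LF fasted mice had 2764, 2522, 2275 and 2650 CPM. The 8 fasted mice on the LF diet were the 8 highest of the 30, since no HF mouse passed 2015 CPM and no LF fed mouse passed 2093 CPM. How many of all genes separate in this way was not counted. On the HF diet WT mice had 1565 to 1758 CPM fed and 1214 to 2015 CPM fasted, which overlapped, and KO mice had 1587 to 1621 CPM fed and 1685 to 1975 CPM fasted, which did not.

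mt-Cytb encodes cytochrome b, the only subunit of complex III made in mitochondria. It differed little between groups, with group means from 14771 CPM in WT HF fasted to 18149 CPM in WT LF fasted mice. KO LF fasted mice had 9816, 22649, 19699 and 17850 CPM, so that this group held both the lowest and the highest of the 30 values. The lowest, 9816 CPM, was from replicate 1, the mouse with the highest mt-Nd2. mt-Co1, the catalytic subunit of complex IV, had 1223, 1195 and 1230 CPM in WT LF fed mice and 1544, 1932, 1469 and 1758 CPM in WT LF fasted mice, without overlap. In the other 3 pairs fed and fasted mice overlapped, between 992 CPM in WT HF fed and 1573 CPM in KO LF fasted mice.

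**Figure D2:**
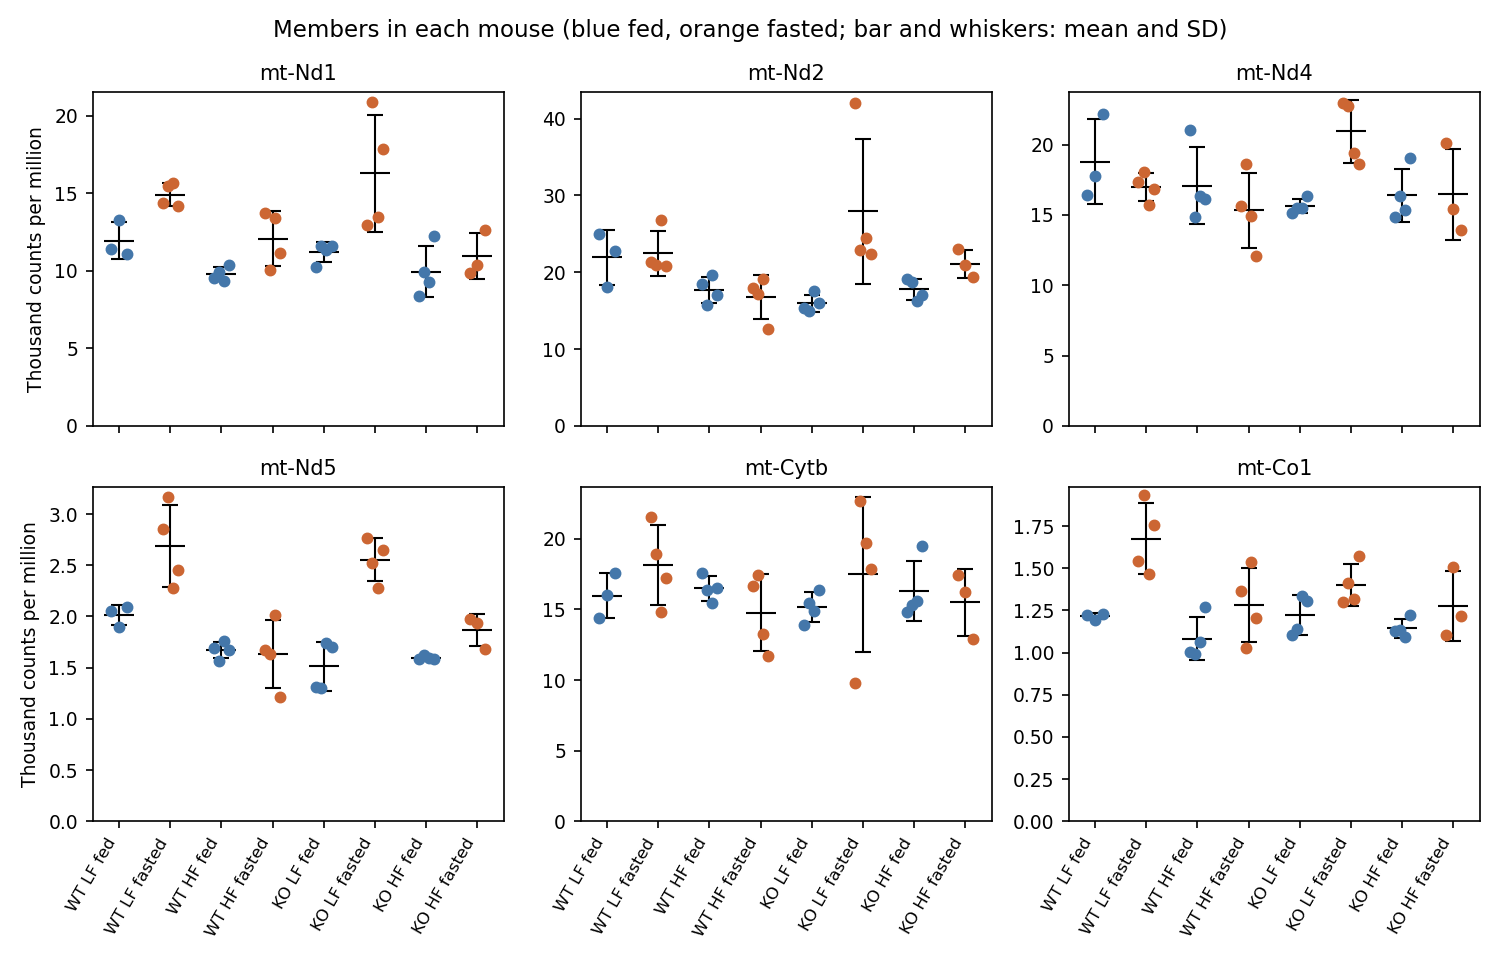
Points are single mice (3 or 4 per group, 30 in all), with CPM divided by 1000 on the y axis of each member's panel and the 8 groups on the x axis; bars and whiskers are the mean and SD. mt-Nd5 reaches 2275 to 3165 CPM in the LF fasted mice and at most 2093 CPM in the others, and KO LF fasted replicate 1 is the 41983 CPM point of mt-Nd2 and the 9816 CPM point of mt-Cytb.

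Each member's part of the 6 members' counts was set out by mouse. mt-Nd2 gave a median of 27.5% of these counts, mt-Nd4 24.9%, mt-Cytb 24.3%, mt-Nd1 17.6%, mt-Nd5 2.71% and mt-Co1 1.89%. One mouse stood apart, KO LF fasted replicate 1, with 45.7% from mt-Nd2 and 10.7% from mt-Cytb, each the extreme of the 30 mice. Between feeding states the median share of mt-Nd1 was 16.5% in fed and 19.7% in fasted mice, while that of mt-Nd4 was 25.9% and 23.2%. All of these ranges overlapped.

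**Figure D3:**
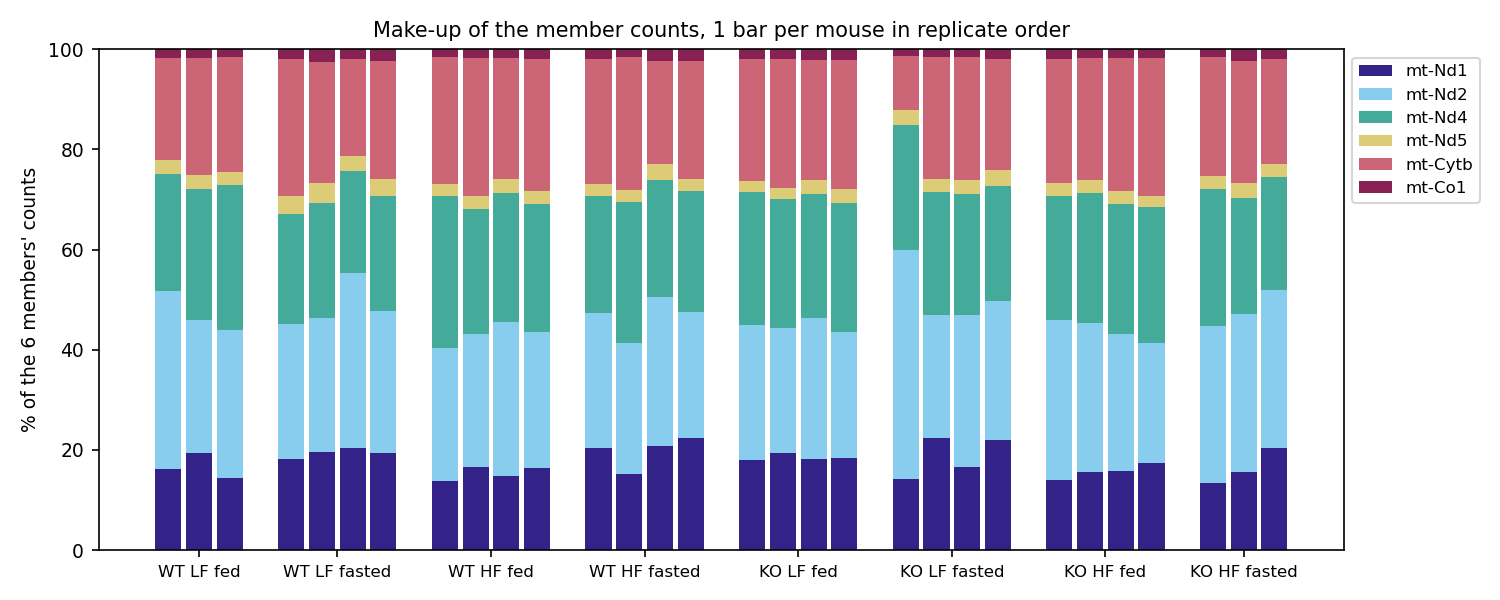
Each bar is 1 mouse, grouped on the x axis by genotype, diet and feeding state, and the y axis gives each member's percent of the 6 members' counts. The first KO LF fasted bar stands apart, with 45.7% mt-Nd2 and 10.7% mt-Cytb, against medians of 27.5% and 24.3%.

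The first comparison asked how fasting changed the members on average over both genotypes and diets. mt-Nd1, mt-Nd2, mt-Nd5 and mt-Co1 rose and mt-Nd4 and mt-Cytb did not pass the test, so 4 of 6 members were higher in fasted mice, while 9.77% of the 11566 genes tested were called higher, 9.14% lower and 18.9% in all. mt-Nd5 had 1303, 1668 and 2093 CPM as the lowest, median and highest of the 15 fed mice and 1214, 2275 and 3165 CPM in the 15 fasted mice. mt-Nd1 had 8390, 10387 and 13292 CPM in fed and 9841, 13444 and 20907 CPM in fasted mice, so that both genes overlapped between feeding states over all conditions. The log2 fold changes were 0.34 for mt-Nd5 (SE 0.08, adjusted p = 0.00089), 0.33 for mt-Nd1 (SE 0.08, adjusted p = 0.0022), 0.27 for mt-Co1 (SE 0.07, adjusted p = 0.0082) and 0.25 for mt-Nd2 (SE 0.09, adjusted p = 0.036). The fitted ratios were 1.27 for mt-Nd5, 1.25 for mt-Nd1 and 1.19 for mt-Nd2. mt-Nd4 had 0.03 (SE 0.08, adjusted p = 0.84) and mt-Cytb 0.04 (SE 0.09, adjusted p = 0.83), values that turn to -0.06 and -0.05 when libraries are scaled by total counts, a scaling that moves the median over all genes to -0.09. The median of the 6 members was 0.26, against 0.00 over all genes tested. The mt-Nd2 call was lost in 13 of 30 fits that left out 1 mouse, with adjusted p up to 0.097, while the calls of mt-Nd1, mt-Nd5 and mt-Co1 held in all 30. Total-count scaling ended the calls of mt-Co1 (0.18, adjusted p = 0.078) and mt-Nd2 (0.16, adjusted p = 0.20), leaving 2 of 6 members called. Without KO LF fasted replicate 1 the mt-Nd2 value was 0.18 (adjusted p = 0.062). With lane as a covariate the mt-Nd2 value was 0.24 (adjusted p = 0.058), also not past the test.

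Within sequencing lanes the fasting differences kept their direction for the 4 members that rose. In lane 7 the log2 fold changes were 0.40 for mt-Nd5, 0.32 for mt-Nd1, 0.38 for mt-Nd2 and 0.23 for mt-Co1, none past the test in the 16 mice, and 376 genes were called against 2187 over both lanes. In lane 8 they were 0.22, 0.36, 0.16 and 0.21 in the same order, with mt-Nd1 past the test (adjusted p = 0.017). mt-Nd4 and mt-Cytb had 0.22 and 0.15 in lane 7 and -0.13 and -0.16 in lane 8. Lane 7 averaged 3 of the 4 genotype and diet strata, since it had no WT LF fed mouse, and lane 8 all 4. In lane 8 the WT HF fed, KO LF fasted and KO HF fasted groups held 1 mouse each. Liver macrophage markers (9 genes) summed to 425 to 605 CPM in fed mice (median 516) and 267 to 812 in fasted mice (median 369), and hepatocyte markers to medians of 53000 and 50600, and their part in the result was not tested.

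The second comparison took fasting within each genotype and diet. In KO LF mice mt-Nd2, mt-Nd5 and mt-Nd1 rose, which is 3 of 6 members where 7.26% of genes were called higher and 13.8% in all. The log2 fold changes were 0.81 for mt-Nd2 (SE 0.17, adjusted p = 0.00071), 0.75 for mt-Nd5 (SE 0.15, adjusted p = 0.00032) and 0.54 for mt-Nd1 (SE 0.15, adjusted p = 0.012), or 1.75-fold, 1.69-fold and 1.45-fold. mt-Nd4 had 0.42 (SE 0.15, adjusted p = 0.054), mt-Cytb 0.21 and mt-Co1 0.20, and these did not pass. Of the 6 members, 4 (mt-Nd1, mt-Nd2, mt-Nd4 and mt-Nd5) had every KO LF fasted mouse above every KO LF fed mouse, as had 6.73% of all genes. In this comparison total-count scaling moved the median over all genes to -0.17, and with it mt-Nd2 and mt-Nd5 had 0.62 and 0.58 (adjusted p = 0.0072 and 0.0031), while mt-Nd1 had 0.37 (adjusted p = 0.088). Without replicate 1 of the fasted mice mt-Nd2 fell to 0.54 (adjusted p = 0.0094), and without replicate 2 mt-Nd1 fell to 0.40 (adjusted p = 0.076). Without replicate 3, which had 244 CPM of adrenal cortex genes, and the other 4 mice with markers of other tissues, the values were 0.86, 0.80 and 0.62, all called. Within lane 7, mt-Nd5 had 0.94 (adjusted p = 0.010), mt-Nd2 0.97 (adjusted p = 0.025) and mt-Nd1 0.52, which did not pass (adjusted p = 0.23). In lane 8 the values were 0.62, 0.41 and 0.63 in the same order. They rest on 1 KO LF fasted mouse in that lane, so only the sizes are given.

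In WT LF mice no member passed the test, with 7.54% of genes called. At an unadjusted p under 0.05, 2 members passed, as did 2231 of the 11566 genes. DESeq2 called 1 member, mt-Co1, and 1052 genes in all. The log2 fold changes were 0.46 for mt-Co1 (SE 0.16, adjusted p = 0.062), 0.42 for mt-Nd5 (SE 0.16, adjusted p = 0.11) and 0.32 for mt-Nd1 (SE 0.16, adjusted p = 0.28), and for these 3 every fasted mouse was above every fed mouse, as was so for 9.96% of genes. In WT HF mice the members lay between -0.16 and 0.30, and in KO HF mice between -0.07 and 0.25. Neither comparison called a member, by edgeR, by DESeq2 or at an unadjusted p under 0.05, and the shares of genes called were 0.424% and 0.527%. These are 49 and 61 genes, and DESeq2 called 161 and 139. Leaving out 1 mouse gave from 1 (without WT HF fed replicate 3) to 157 genes (without WT HF fasted replicate 2) in WT HF mice, and from 4 (without KO HF fasted replicate 3) to 117 (without KO HF fasted replicate 1) in KO HF mice. Every fasted mouse was above every fed mouse for no member in WT HF mice (3.23% of genes) and for mt-Nd2 and mt-Nd5 in KO HF mice (5.35% of genes).

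The differences between these fasting effects were tested directly. The fasting effect on the HF diet minus that on the LF diet was negative for all 6 members, from -0.49 for mt-Nd5 to -0.13 for mt-Co1, and none passed the test, with 2.46% of genes called. mt-Nd5 had -0.49 (SE 0.15, adjusted p = 0.081) and was the 1 member with an unadjusted p under 0.05, where 1533 of 11566 genes had this. It was called by DESeq2 (adjusted p = 0.020), which called 430 genes in all. The fasting effect in KO minus that in WT mice ran from -0.18 to 0.55. For this difference 2 members had an unadjusted p under 0.05, as had 573 of 11566 genes. DESeq2 called 0 members, and the edgeR test called no member and 0% of genes. This test averages both diets, and the difference between KO LF and WT LF mice alone was not tested.

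**Figure D4:**
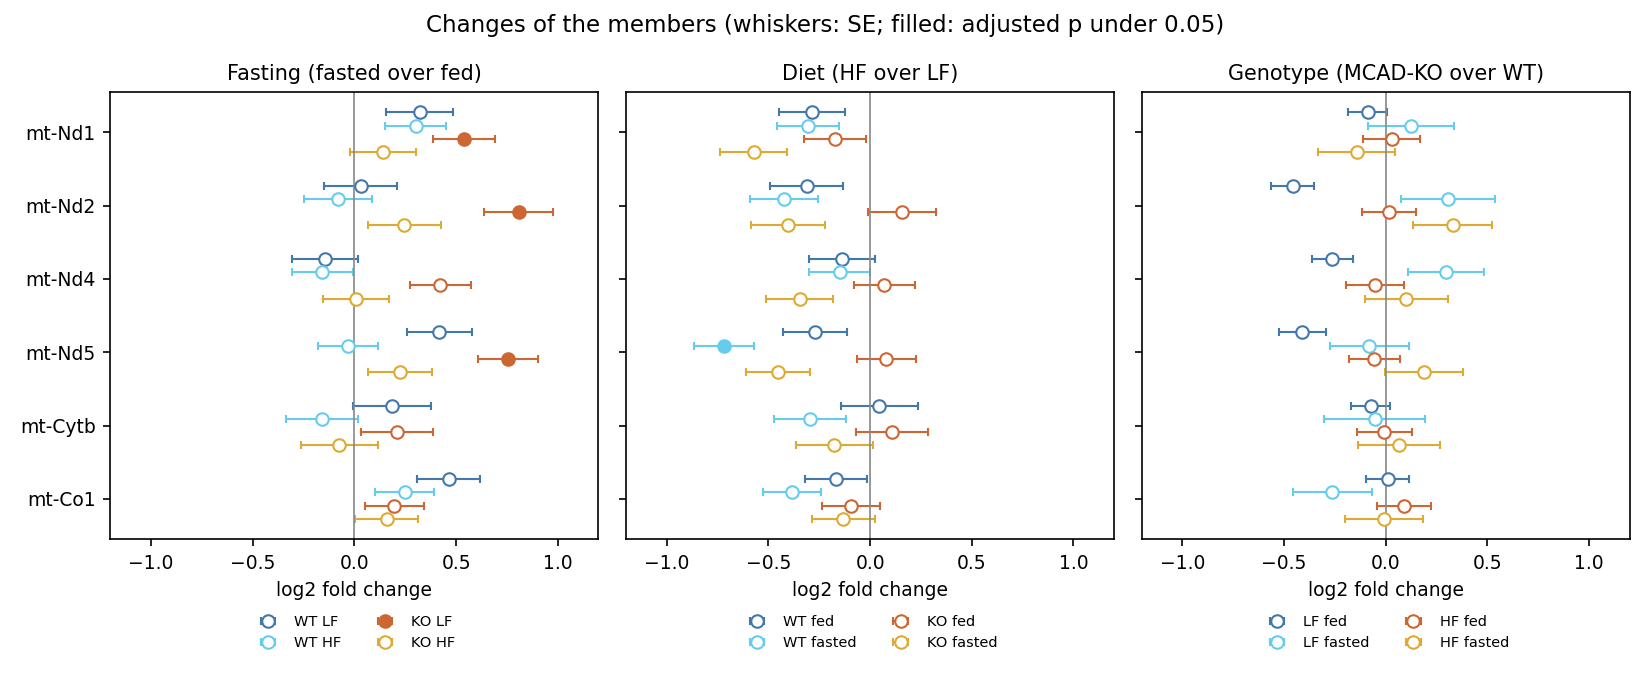
Each point is a log2 fold change of 1 member with its SE as whiskers, in panels for fasted over fed, HF over LF and MCAD-KO over WT, each within the 4 strata named in the legends; filled points have an adjusted p under 0.05. The filled points are mt-Nd1 (0.54), mt-Nd2 (0.81) and mt-Nd5 (0.75) for fasting in KO LF mice and mt-Nd5 (-0.72) for diet in WT fasted mice.

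The third comparison set the HF diet against the LF diet. mt-Nd5 and mt-Nd1 were lower on the HF diet, 2 of 6 members, while 1.24% of genes were called lower, 2.26% higher and 3.49% in all. mt-Nd5 had 1303, 2275 and 3165 CPM as the lowest, median and highest of the 15 LF mice and 1214, 1668 and 2015 CPM in the 15 HF mice, and mt-Nd1 had 10276, 13292 and 20907 CPM on LF and 8390, 10031 and 13735 CPM on HF, both with overlap. Their log2 fold changes were -0.34 for mt-Nd5 (SE 0.08, adjusted p = 0.0061) and -0.33 for mt-Nd1 (SE 0.08, adjusted p = 0.0097), or 0.789-fold and 0.794-fold. The means were 1680 CPM ± 195 (SD, n = 15) on HF and 2205 CPM ± 551 on LF for mt-Nd5, and 10682 CPM ± 1598 on HF and 13704 CPM ± 2871 on LF for mt-Nd1. mt-Nd2 had -0.25, mt-Co1 -0.20, mt-Nd4 -0.14 and mt-Cytb -0.08, and none of these passed (adjusted p from 0.12 to 0.76). All 6 values were negative, with a median of -0.22 against 0.01 over all genes.

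Both diet calls held in each of 30 fits without 1 mouse, but not within lanes or without the 5 mice that carried markers of other tissues. mt-Nd5 had -0.31 in lane 7 (adjusted p = 0.30) and -0.40 in lane 8 (adjusted p = 0.057), and mt-Nd1 had -0.41 and -0.27 (adjusted p = 0.24 and 0.17). Without those 5 mice, 4 of them on the HF diet, mt-Nd5 had -0.31 (adjusted p = 0.056) and mt-Nd1 -0.30 (adjusted p = 0.069), and 205 genes were called against 404. The part of those markers in the difference was not tested.

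Within strata, mt-Nd5 was lower in WT HF fasted than in WT LF fasted mice, by a log2 fold change of -0.72 (SE 0.15, adjusted p = 0.0054), the 1 member called where 0.45% of genes were called lower and 1.12% in all. The 4 HF mice had 1677, 1630, 2015 and 1214 CPM and the 4 LF mice 2283 to 3165 CPM, without overlap. mt-Nd1 and mt-Nd2 did not overlap either, as was so with lower HF values for 3.44% of genes, but did not pass the test (-0.30 and -0.42, adjusted p = 0.41 and 0.26). The value was -0.87 in lane 7 (adjusted p = 0.064) and -0.55 in lane 8 (adjusted p = 0.44), past the test in neither, and without the mice with markers of other tissues, which removed 2 of the 4 HF mice, it was -0.54 (adjusted p = 0.37). In KO fasted mice mt-Nd1 had -0.57 (SE 0.16, adjusted p = 0.064), and no member was called, with 1.68% of genes called. At an unadjusted p under 0.05 there were 4 members, and 1510 of 11566 genes. DESeq2 called 2 members, mt-Nd1 and mt-Nd5, and 385 genes in all. In fed mice the diet called no member in WT (0.0778% of genes) or KO (0.00865% of genes), by either tool or at an unadjusted p under 0.05.

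The fourth comparison set MCAD-KO against WT mice. Over all conditions no member changed, and the log2 fold changes ran from -0.09 for mt-Nd5 (SE 0.08) to 0.05 for mt-Nd2 (SE 0.09), with none at an unadjusted p under 0.05 or called by DESeq2. The 95% intervals lay between -0.24 and 0.22 for all 6 members. Acadm itself was the 1 gene called (0.00865% of genes), at a log2 fold change of -4.44 (SE 0.12). Within conditions, each fitted on its own 7 or 8 mice, the shares of genes called were 0.0193% in LF fed, 0.0104% in LF fasted, 0.00998% in HF fed and 0.0096% in HF fasted mice. No member was among them, by edgeR or by DESeq2. The largest difference was in LF fed mice, where mt-Nd2 had -0.46 (SE 0.11, adjusted p = 0.53) and mt-Nd5 -0.41 (SE 0.12, adjusted p = 0.74). In this condition 3 members had an unadjusted p under 0.05, as had 582 of the 10366 genes tested. The 4 KO LF fed mice lay below the 3 WT LF fed mice in mt-Nd2, mt-Nd5 and mt-Nd4, as was so for 3.58% of genes. This separation rests on the 3 WT mice kept. The WT LF fed mouse left out had lower shares of all counts than they did. It had 1.54% against 1.83% to 2.57% for mt-Nd2, 1.35% against 1.69% to 2.23% for mt-Nd4, and 0.149% against 0.193% to 0.211% for mt-Nd5. All 3 of those WT mice were from lane 8, as were 2 of the 4 KO mice, and the part of the lane in the difference was not tested.

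The 6 members together took 5.25% to 8.70% of all counts in the 30 mice, with a median of 6.71%. The widest 95% Wilson interval of a single mouse was 0.0725 percentage points, and it covers counting error only, since reads without molecular identifiers are not independent molecules. In KO LF fed mice the share was 6.23%, 6.20%, 6.42% and 6.38%, and in KO LF fasted mice 8.16%, 8.70%, 7.52% and 7.45%. These groups did not overlap, with means of 6.31% ± 0.110 (SD, n = 4) and 7.96% ± 0.590. In WT LF mice the share was 7.25%, 6.92% and 7.74% fed and 7.22%, 7.33%, 7.60% and 6.999% fasted, so that the fed and fasted means were 7.30% ± 0.409 (SD, n = 3) and 7.29% ± 0.250. Among the 30 mice, all 4 KO LF fed mice were thus below all 7 WT LF mice, and 2 of the 4 KO LF fasted mice were above them. The WT LF fed mouse left out had 5.92%, below the 4 KO LF fed mice, so the separation of KO LF fed from WT LF mice holds only without it.

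On the HF diet the group means were closer. They were 6.59% ± 0.442 in WT fed and 6.28% ± 0.700 in WT fasted mice (n = 4 each), and 6.48% ± 0.378 (n = 4) in KO fed and 6.62% ± 0.723 (n = 3) in KO fasted mice. The values ran from 5.25%, in WT HF fasted replicate 4, to 7.38%, in KO HF fasted replicate 1, and all 4 groups overlapped. By lane, fed mice had a median of 6.29% and fasted mice 7.33% in lane 7, and 6.67% and 6.72% in lane 8. The share is given as a description with no test, and it moves with every other abundant transcript in the liver as well as with the members.

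**Figure D5:**
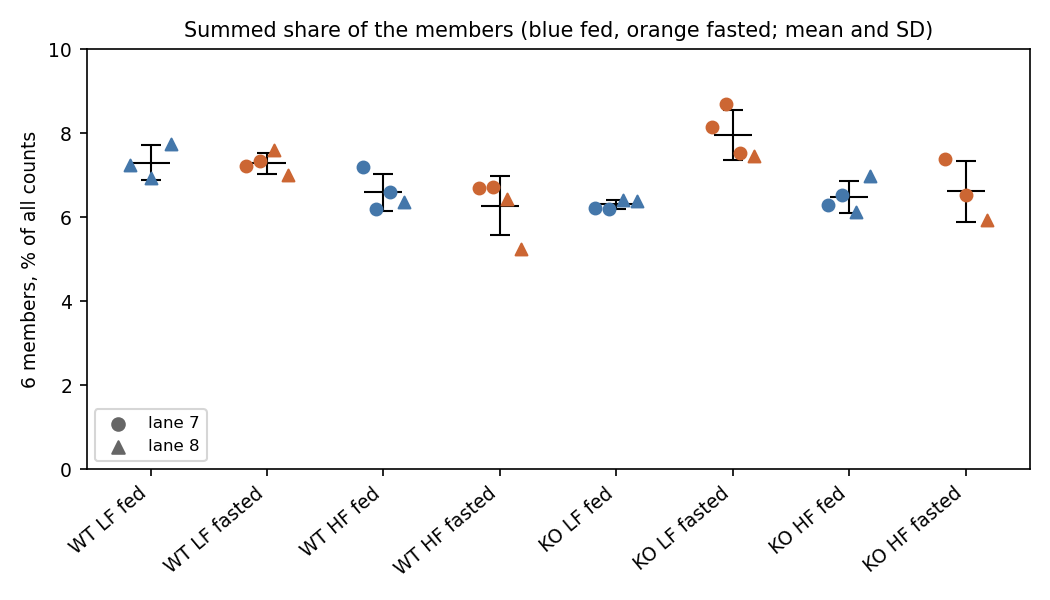
Each point is the summed share of the 6 members in 1 mouse, in percent of all counts on the y axis, by group on the x axis; circles are lane 7, triangles lane 8, and bars with whiskers the mean and SD. KO LF fed mice sit at 6.20% to 6.42% and KO LF fasted mice at 7.45% to 8.70%, while fed and fasted mice overlap in the other groups.

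Of the mice left out, the library with heart markers had 24.2%, with mt-Nd4 at 6.81% of all counts, against at most 2.23% in the 30 mice, and mt-Nd5 at 0.840%, against at most 0.296%. The library left out of the WT LF fed group had 5.92%, below the 3 other mice of its group, with mt-Nd2 at 1.54%, against 1.83% to 2.57% in that group, though its summed share lay within the range of the 30 mice.

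The other mitochondrial genes gave a background for the members. The ribosomal RNAs mt-Rnr2 and mt-Rnr1 had medians of 31530 and 7499 CPM, and neither passed the test for fasting (0.14 and 0.03), diet (-0.13 and 0.04) or genotype (0.03 and 0.06). In KO LF mice their fasting values were 0.41 (SE 0.17, adjusted p = 0.10) and 0.38 (SE 0.17, adjusted p = 0.13). mt-Nd6, the protein gene of the opposite strand, whose messenger is known to have little or no poly(A) tail, had a median of 33.3 CPM and passed in no comparison. Its end overlaps that of mt-Nd5 on the other strand, and whether counting used strand was not stated. mt-Nd3, with 98% of its windows shared with a nuclear transcript, had at most 1 count in any of the 30 mice. Of 10 transfer RNA genes in the table, 6 had enough counts to be tested. Counts at mt-Tp, the gene of the proline transfer RNA, fell in fasted mice by 0.96 on the log2 scale (SE 0.23, adjusted p = 0.0024). The median was 5.77 CPM in fed and 3.35 CPM in fasted mice, on 1 to 36 counts a library. Counts at mt-Ti, the gene of the isoleucine transfer RNA, fell in KO LF fasted mice by 1.19 (SE 0.37, adjusted p = 0.035). They ran from 97 to 158 CPM in fed and from 26.6 to 80.7 CPM in fasted mice. The first bases of mt-Ti are also the last bases of mt-Nd1 (chrM:3706-3707), so reads at that border are uncertain. The libraries read the ends of messengers, and which molecules gave the counts at transfer RNA genes was not tested.

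Genes that make and process mitochondrial RNA are encoded in the nucleus. Of a list of 43 such genes, 41 were tested, and with fasting 4 rose, 3 fell and 34 did not pass, a share close to the 18.9% called over all genes, with a median log2 fold change of 0.06 against 0.00 over all genes. Hsd17b10, a subunit of the mitochondrial RNase P that cuts the 5′ ends of transfer RNAs out of the precursor and also an enzyme of isoleucine breakdown, rose by 1.24 (SE 0.13, adjusted p = 4.1e-09), from 125 CPM ± 32.3 to 286 CPM ± 85.5 (SD, n = 15 each). Elac2, which cuts their 3′ ends, rose by 0.49 (SE 0.17, adjusted p = 0.037). Tbrg4 and Fastkd5, both of the FASTK family of mitochondrial RNA-binding proteins, moved in opposite directions, by 0.37 and -0.54 (adjusted p = 0.045 and 0.042). Mgme1 and Primpol, which serve mitochondrial DNA maintenance, fell by 0.73 and 1.04 on the log2 scale (adjusted p = 0.00012 and 0.0082), and Ppargc1b, a coactivator of mitochondrial genes, rose by 0.53 (adjusted p = 0.048).

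The core transcription genes did not pass for fasting. Polrmt, the mitochondrial RNA polymerase, had -0.25 (adjusted p = 0.47) on 4 to 43 counts a library, Tfam, which packages mitochondrial DNA and starts transcription, 0.18 (adjusted p = 0.26), Tfb2m, the second initiation factor, 0.20 (adjusted p = 0.64), and Lrpprc, which stabilises mitochondrial messengers, -0.10 (adjusted p = 0.72). With diet 1 gene of the list fell and 40 did not pass, where 3.49% of all genes were called. This was Ppargc1a, a coactivator that drives mitochondrial biogenesis and responds to fasting in liver, at -0.54 on HF (SE 0.15, adjusted p = 0.038), from 39.5 CPM ± 19.2 on LF to 26.6 CPM ± 5.23 on HF. Its fasting value was 0.18 (adjusted p = 0.46). None of the 41 changed with genotype, none had an unadjusted p under 0.05, and DESeq2 called 1 gene of all those tested.

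The nuclear genes of oxidative phosphorylation, whose proteins join the members in the same complexes, numbered 82, of which 80 were tested. With fasting 1 rose, 3 fell and 76 did not pass, with a median of -0.01 against 0.26 for the 6 members and 0.00 for all genes, of which 18.9% were called. Cox7a2l, an assembly factor of respiratory supercomplexes, rose by 0.31 (adjusted p = 0.0068), and Atp5g1 of ATP synthase, Ndufs8 of complex I and Sdha of complex II fell by 0.37, 0.37 and 0.19 on the log2 scale (adjusted p = 0.0062, 0.0063 and 0.033). With the HF diet none rose, 4 fell and 76 did not pass, where 3.49% of all genes were called, with a median of -0.10 against 0.01 over all genes. These were Uqcrh, Uqcr10 and Cyc1 of complex III, at -0.29, -0.28 and -0.26, and Atp5o of ATP synthase, at -0.31 (adjusted p from 0.027 to 0.043). Genotype called none of the 80, and none had an unadjusted p under 0.05.

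As a description, the level of every nuclear gene was set beside the mean log2 CPM of the 6 members over the 30 mice. The genes most like the members were Arg1 (Pearson r = 0.88), Asl (0.87), Trim2 (0.85), Gm16573 (0.83) and Adgrf5 (0.82), and Arg1 and Asl encode enzymes of the urea cycle. The most opposite were Gclc (-0.84), Acat3 (-0.84) and Aox3 (-0.84). Among the members themselves the coefficients ran from -0.09 between mt-Nd2 and mt-Cytb to 0.77 between mt-Nd2 and mt-Nd5. All these points share libraries, scaling factors and the study's groups, so the coefficients carry no test.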

How the data were processed

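Liver RNA of 32 mice was converted by the authors into QuantSeq 3′ libraries and sequenced as single 50-base reads. Per the labels, reads were aligned with HISAT 0.1.5 to GRCm38 and counted per gene with HTSeq 0.6.1p1. The deposited table holds whole-number counts with no normalization. The methods give union mode and no strand setting, so whether antisense and overlapping genes were told apart is not known. HTSeq by default passes over reads with several alignments.

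Genes kept by filterByExpr (11566 over 30 mice) were scaled by TMM and tested with edgeR 4.0.16 (quasi-likelihood, robust, R 4.3.3) in 1 model of 8 group means. Genotype within a condition was fitted on its own mice. P-values were adjusted by Benjamini-Hochberg over all genes, with a threshold of 0.05. DESeq2 1.42.0 was an alternative. The labels name separate mice, and no 2 libraries of a group agreed within sampling noise (lowest chi-square per gene 4.17). CPM are TMM-scaled. Shares and marker sums use all counts. Nuclear matches came from GENCODE vM21 transcripts on GRCm38. Symbols were matched for 19913 of 20076 gene IDs. The fit was tested on simulated data.

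The members and lists were chosen with earlier results of these data known. Named genes were all members, the other mitochondrial genes, Acadm, 5 regulators of mitochondrial transcription, up to 4 genes per direction of each list in the fasting, diet and genotype comparisons with the smallest p among those called, and the 5 most and 3 least correlated nuclear genes. Both left-out libraries and the 5 mice with markers of other tissues over 100 CPM were tried as alternatives, the latter and the within-lane fits chosen after seeing the data.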

Additional observations from a re-analysis of the deposited data

Results flagged for a closer look

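In groups of 4 mice, 42 sets of values (6 members and their summed share) were searched for a mouse far from the rest of its group, and 3 stood apart by Dixon's test at the 95% level. Chance flags about 1 in 20 such sets. In KO LF fasted replicate 1, mt-Nd2 was 41983 CPM, against 22325 to 24431 CPM in the other 3 mice. In WT LF fasted replicate 3, mt-Nd2 was 26742 CPM, against 20809 to 21271 CPM. In KO HF fed replicate 4, mt-Cytb was 19499 CPM, against 14829 to 15623 CPM, a gap only just past the critical value.

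The library left out as KO HF fasted replicate 4 had a summed share of 24.2% of all counts, above the 8.70% that was the highest of the 30 mice. It carried heart markers at 34400 CPM.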

How the results depend on the processing

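The number of members called in the 17 comparisons moved in at least 1 comparison under every setting named here other than scaling by nuclear genes and the replicate block. With all 32 mice it was 1 for fasting and 0 for diet, fasting in KO LF mice and diet in WT fasted mice, and 81, 735, 22 and 5 genes were called for diet, fasting in KO LF, fasting by diet and diet in WT fasted mice. Among the member values followed individually across settings, that setting turned 8. For diet mt-Nd4 had 0.12, mt-Cytb 0.14 and mt-Co1 0.04. For genotype mt-Nd1 had 0.21, mt-Nd5 0.19, mt-Cytb 0.20 and mt-Co1 0.19, and for diet in KO fasted mice mt-Nd1 had 0.31. Other values were followed only as ranges over the alternative settings. For diet in KO fasted mice the remaining members also reached positive values, from 0.19 for mt-Nd2 to 0.76 for mt-Co1. For fasting by diet mt-Nd1 reached 0.20, mt-Co1 0.29, mt-Nd4 0.14 and mt-Cytb 0.01, while mt-Nd2 and mt-Nd5 stayed negative. With all 32 mice the KO HF fasted share rose to 11.0%, and the heart markers of the added library are given above. With WT LF fed replicate 2 alone added, 1 member was called for diet, 2 for fasting in WT LF, and 152 genes for fasting by diet, and mt-Cytb had 0.01 for genotype.

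Total-count scaling called 2 members for fasting, with mt-Nd4 at -0.06 and mt-Cytb at -0.05. Scaling by nuclear genes only changed no count of members by over 1.5 times. Within lane 7, members called were 0 for fasting, diet and diet in WT fasted mice, with 376, 117 and 530 genes called for fasting, diet and fasting in KO LF mice. Within lane 8 they were 1 for fasting and 0 for diet, fasting in KO LF and diet in WT fasted mice, with 830 genes called for fasting in KO LF and 15 for diet in WT fasted mice, and mt-Nd4 and mt-Cytb at -0.13 and -0.16 for fasting. These fits use fewer mice, and in lane 8 the WT HF fed, KO LF fasted and KO HF fasted groups held 1 mouse each. Without the 5 mice with markers of other tissues, 0 members were called for diet and diet in WT fasted and 1 for diet in KO fasted mice, with 205, 19 and 110 genes for diet, diet in WT fasted and fasting by diet. DESeq2 called 1 member for fasting by diet and for fasting in WT LF and 2 for diet in KO fasted mice. It called 430, 1052 and 385 genes in these comparisons, and 260 for diet in WT fasted mice. Lane as a covariate called 1 member for fasting in WT LF mice and ended the mt-Nd2 call for fasting (0.24, adjusted p = 0.058). With no filter 2 members and 39 genes in all were called for genotype in LF fed mice. Where not stated above, the cause was not tested.

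Leaving out 1 mouse gave 3 to 4 members for fasting, 2 for diet, 2 to 4 for fasting in KO LF, 0 to 1 for fasting by diet, fasting in WT LF and diet in KO fasted, 1 to 2 genes for genotype, 170 to 333 for fasting by diet and 67 to 238 for diet in WT fasted. Values near 0 turned: mt-Nd4 from -0.01 to 0.07 for fasting, and for genotype mt-Nd1 from -0.06 to 0.00, mt-Nd2 from -0.02 to 0.07, mt-Nd4 from -0.02 to 0.05 and mt-Cytb from -0.06 to 0.03.

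Counting all mitochondrial genes, mean shares in WT mice were 11.5% (LF fed), 11.3% (LF fasted), 10.3% (HF fed) and 9.94% (HF fasted), and in KO mice 9.88%, 12.1%, 10.6% and 10.6% in this order. Same-numbered mice did not deviate together (median residual correlation 0.00603 over 98 pairs, against -0.00207 over 295 pairs with other numbers). The medians gave no sign that the numbers pair mice, but they cannot exclude a weak pairing. A replicate block called 4 members for fasting, 2 for diet and 3 for fasting in KO LF mice. Depth limits the transfer RNAs and mt-Nd3 but not the 6 members. Nuclear copies leave the level of mt-Co1 uncertain, and 3 members were not analysed here.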
